A study of Mus musculus with 3 samples.

Results

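Itln1, Ang4, Retnlb, Clca1, Mptx1, Pla2g4c, Retnla and Fcer2a are 8 genes known or suspected to respond to the type 2 cytokines IL-4 and IL-13, out of 19938 genes measured in the mouse distal colon. They were chosen by hand from their measured values because they read low on the array of IL-4Rα-/- mice. That choice set no numeric limit, so no member lies just inside or just outside one. Each comparison that involves the IL-4Rα-/- array is therefore given as a description. The difference between the WT arrays is not what the genes were chosen for, but the WT levels entered the choice as the levels that the IL-4Rα-/- array lay below, so it is given as a description too.

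RNA was hybridised to 3 arrays, with 1 array for each group and RNA of several mice pooled on each. The WT normal pool came from 4 mice on plain drinking water, with a disease activity index of 0. The WT colitis pool came from 3 mice given 3% dextran sulphate sodium (DSS), which injures the colonic epithelium, and their index was 3 to 4. The IL-4Rα-/- colitis pool came from 6 littermates given the same 3% DSS, with an index of 0 to 3. All were male BALB/c mice of 10 to 12 weeks, and the distal colon was taken on day 7. The IL-4Rα-/- mice carried the germline allele Il4ra tm1Sz in every cell type. An array of untreated IL-4Rα-/- colon was not analysed here, so in IL-4Rα-/- colitis against WT normal the genotype and the DSS cannot be told apart. In IL-4Rα-/- colitis against WT colitis, the genotype and the milder disease of that pool cannot be told apart either. With 1 array per group there was no replicate check, the spread between mice was not measured, and no p-value is given.

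IL-4 and IL-13 both signal through receptors that contain IL-4Rα, and the receptor passes the signal to the transcription factor STAT6. In the gut this pathway is best known from worm infection, where epithelial cells, goblet cells above all, secrete mucus, lectins and antimicrobial proteins into the lumen. Macrophages and B cells respond as well, with RELMα (Retnla) and the IgE receptor CD23 (Fcer2a) as familiar read-outs. In bulk tissue, fewer cells of a type and less RNA per cell cannot be told apart, and this holds for each value that follows.

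Signals are on the log2 scale as deposited, so a difference of 1 is 2-fold. A background level was taken as the 95th percentile of 1210 olfactory and vomeronasal receptor probe sets, genes taken here to be mostly silent in the colon. It lay at 3.48 on the WT normal, 3.53 on the WT colitis and 3.50 on the IL-4Rα-/- colitis array. The median log2 difference over all genes was 0.00 for each pair of arrays, and 45.8% of genes had an identical value on all 3 arrays. None of the 8 members did, and each was read by 1 probe set.

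The targeted gene Il4ra, the receptor chain itself, had a log2 signal of 5.69 on the WT normal array, 6.63 on the WT colitis array and 4.76 on the IL-4Rα-/- array. The IL-4Rα-/- array read lowest, with differences of -1.87 from WT colitis and -0.93 from WT normal, but stayed above background. Whether its probes lie inside the deleted part of the gene was not tested. The tissue label was checked on 14 markers of the colonic epithelium, and 0 of them were below background on all 3 arrays, with Car1, a colonic carbonic anhydrase, at 12.80, 12.67 and 12.83. The epithelial markers were not level between the arrays, however. In WT colitis against WT normal 3 of the 14 were more than 2-fold lower, against 0.456% of all genes. They were Hoxb13, a marker of the most distal colon (-2.45), the water channel Aqp8 (-1.56) and the chloride exchanger Slc26a3 (-1.06). Hoxb13 (1.97) and Aqp8 (1.64) lay more than 2-fold above WT colitis on the IL-4Rα-/- array, where 0.271% of all genes did. Against WT normal 0 of the 14 passed 2-fold on the IL-4Rα-/- array, where 0.336% of all genes were more than 2-fold lower. The part of these differences in the members' values was not tested. Of 9 markers of small intestinal enterocytes, 5 were below background on every array, among them sucrase-isomaltase (Sis, 2.53 on each), lactase (Lct, 2.82 on each) and Fabp6 (2.53 on each). Alpi, an intestinal alkaline phosphatase, was the one of the 9 past 2-fold, with WT colitis above WT normal (1.51) and the IL-4Rα-/- array below WT colitis (-1.34).

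Among the secreted products of the epithelium, Itln1 had the widest range. Itln1 encodes intelectin, a lectin that binds sugars of microbial surfaces and is made by goblet and Paneth cells. Its log2 signal was 9.41 on the WT normal array, 10.53 on the WT colitis array and 5.14 on the IL-4Rα-/- array. The WT colitis array was the brightest, and the IL-4Rα-/- array lay 41.9-fold under WT colitis and 19.3-fold under WT normal. Only 1 gene of the 19938 had a larger decrease from WT colitis, so Itln1 ranked 2. With an offset of 32 added on the linear scale, which damps dim signals, the differences were -4.49 and -3.40 in place of -5.39 and -4.27. It was still 1.64 above background on the IL-4Rα-/- array. Near-identical intelectin copies exist in some mouse strains, and 1 probe set does not separate them.

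Ang4 encodes angiogenin 4, a ribonuclease-family protein with antimicrobial activity released by Paneth and goblet cells. Its log2 signal was 9.50 on the WT normal array, 8.63 on the WT colitis array and 4.39 on the IL-4Rα-/- array. The order of the WT arrays was thus the opposite of that of Itln1, while the IL-4Rα-/- array was again far the lowest. It lay 18.9-fold below WT colitis (rank 3) and 34.5-fold below WT normal (rank 6). The value in IL-4Rα-/- colitis was 0.89 above background, and with the offset of 32 the log2 differences were -3.02 and -3.84 in place of -4.24 and -5.11.

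Mptx1, mucosal pentraxin 1, is a secreted relative of C-reactive protein made in the intestinal epithelium. Its log2 signal was 6.81 on the WT normal array, 4.85 on the WT colitis array and 3.36 on the IL-4Rα-/- array. It was the only member below background on the IL-4Rα-/- array, so its decreases are lower limits, at least 2.55-fold from WT colitis and at least 9.92-fold from WT normal. A large part of the drop was already present in WT colitis, which lay 3.89-fold below WT normal.

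Retnlb and Clca1 are both abundant goblet cell products. Retnlb encodes RELMβ, a small cysteine-rich protein secreted into mucus, and Clca1 encodes a secreted metalloprotease that processes the mucus layer. The log2 signal of Retnlb was 11.80 on the WT normal array, 11.83 on the WT colitis array and 10.85 on the IL-4Rα-/- array. That of Clca1 was 12.31, 12.09 and 11.10 in the same order. Both were almost level between the WT arrays and lower by about 1 on the IL-4Rα-/- array, 1.97-fold and 1.99-fold below WT colitis. Both kept signals more than 7 above background in IL-4Rα-/- colitis (7.35 and 7.60), so neither was near the floor of the array. The brightest probe set on any array read 13.34, and whether signals flatten towards that end of the scale was not tested.

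Pla2g4c encodes a cytosolic phospholipase A2 that frees fatty acids from membrane lipids, and unlike the products above it is not secreted. Its log2 signal was 7.62 on the WT normal array, 6.68 on the WT colitis array and 3.78 on the IL-4Rα-/- array. The IL-4Rα-/- array lay 7.46-fold below WT colitis (rank 8) and 14.3-fold below WT normal (rank 14). At 0.28 above background it was close to undetected there.

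Retnla encodes RELMα, a product of macrophages stimulated by IL-4 and also of adipose tissue. Its log2 signal was 5.72 on the WT normal array, 4.60 on the WT colitis array and 3.80 on the IL-4Rα-/- array. WT normal was the highest array, as for Ang4, Mptx1, Pla2g4c and, by a small margin, Clca1. The step from WT normal to WT colitis (2.17-fold) was larger than the step from WT colitis to IL-4Rα-/- colitis (1.74-fold). Fcer2a encodes CD23, the low-affinity IgE receptor of B cells. It was dim throughout, with a log2 signal of 4.14 on the WT normal array, 4.75 on the WT colitis array and 3.63 on the IL-4Rα-/- array. WT colitis was its highest array, and the IL-4Rα-/- array lay 2.17-fold below that and 1.42-fold below WT normal, with 0.13 to background.

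**Figure D1:**
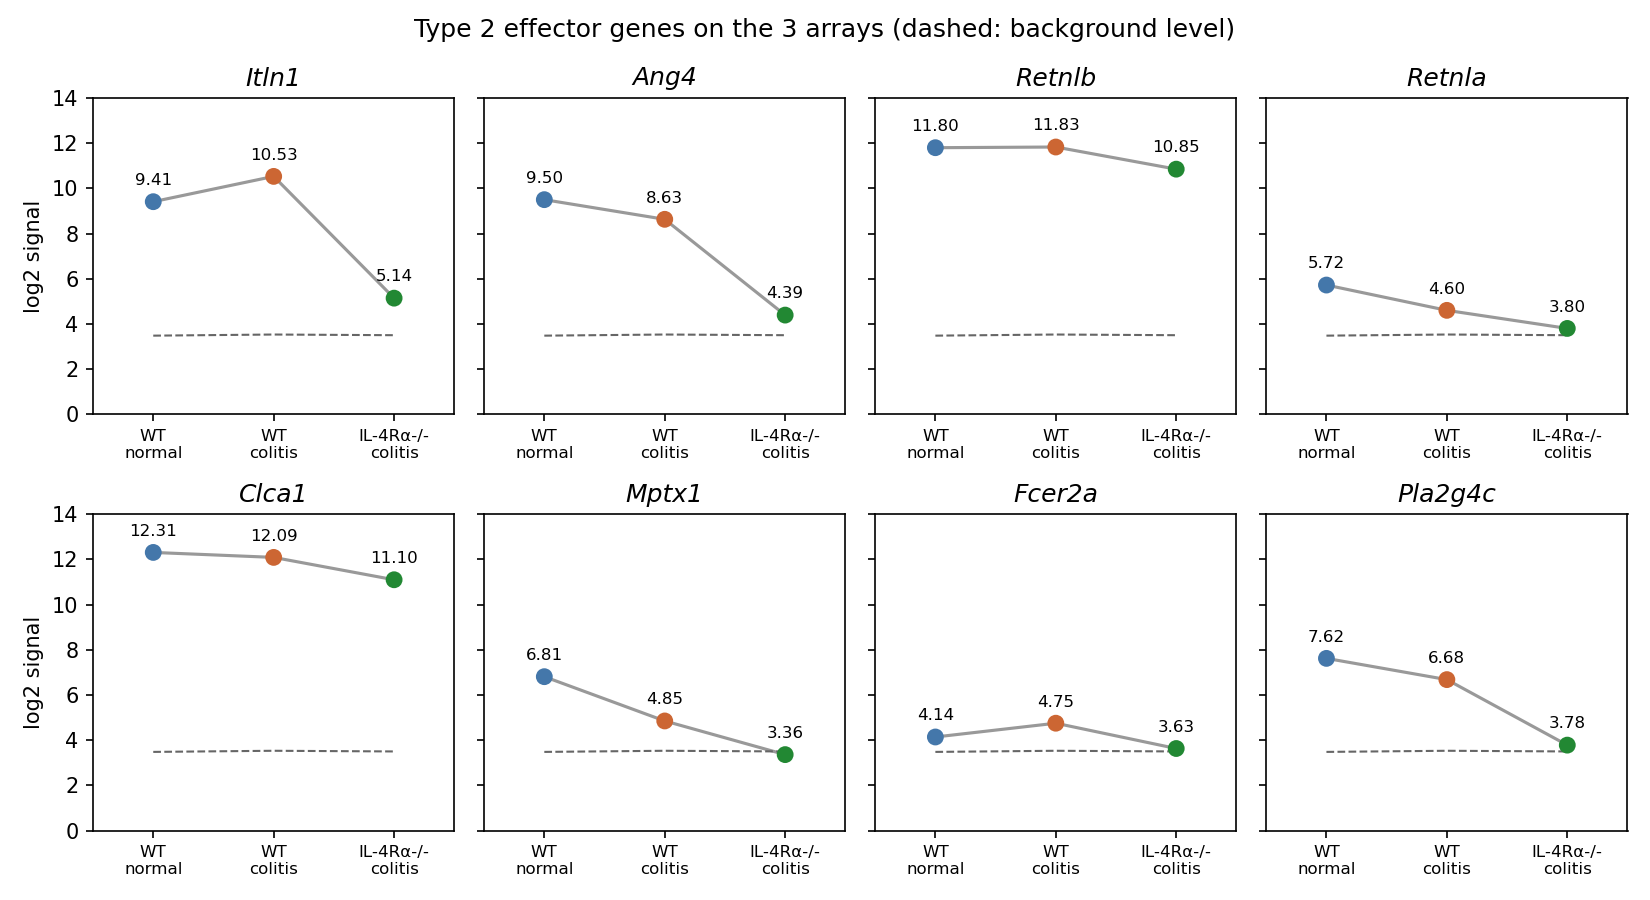
Log2 signal of each of the 8 genes (y axis, 1 panel per gene) on the 3 arrays (x axis, WT normal to IL-4Rα-/- colitis), 1 array of pooled RNA per point, with the background level as a dashed line. The IL-4Rα-/- point is the lowest in each panel, from far above background for Clca1 (11.10) and Retnlb (10.85) to just below it for Mptx1 (3.36).

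Promoter sequence was read for the members that carry these patterns. RefSeq (GRCm38.p6, a C57BL/6J reference, whereas the mice were BALB/c) gave transcription starts for 6 of the 8 members, 9 starts in all. Retnlb and Clca1 had no entry. STAT6 is known to favour TTCNNNNGAA, a palindrome that reads the same on both strands, over the TTCNNNGAA that other STAT proteins favour. A match is a description of the letters and not a binding site. In the 250 bases before the start, TTCNNNNGAA was found at 2 of the 9 member starts, those of Retnla and 1 of the 3 of Fcer2a, and at 5.85% of the 32851 starts in the table. TTCNNNGAA was found at 1 of the 9, that of Ang4, and at 7.02% of all starts. Retnla (chr16:48842359-48842608, + strand) is shown because it holds the STAT6 spacing, from base 145 to base 136 before the start. Ang4 (chr14:51773591-51773840, - strand) holds the shorter spacing, from base 192 to base 184 before the start. Itln1 (chr1:171535295-171535544, - strand) is shown because it had the largest decrease of the members from WT colitis, and it holds neither. For Fcer2a, 30 bases around the match (bases 168 to 159 before the start, in the window chr8:3690862-3691111, - strand) are shown for comparison with Retnla. Each sequence reads 5′ to 3′ on the strand of the gene and capitals mark either motif.
Retnla: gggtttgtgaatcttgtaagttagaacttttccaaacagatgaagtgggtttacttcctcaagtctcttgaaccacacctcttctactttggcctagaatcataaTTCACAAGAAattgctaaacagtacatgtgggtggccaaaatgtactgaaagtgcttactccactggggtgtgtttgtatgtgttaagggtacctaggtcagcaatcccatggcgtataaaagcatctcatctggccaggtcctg
Ang4: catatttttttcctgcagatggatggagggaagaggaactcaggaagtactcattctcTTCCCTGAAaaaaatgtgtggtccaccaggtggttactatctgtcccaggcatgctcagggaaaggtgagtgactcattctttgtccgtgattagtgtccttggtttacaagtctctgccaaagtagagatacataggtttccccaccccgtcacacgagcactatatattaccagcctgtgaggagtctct
Itln1: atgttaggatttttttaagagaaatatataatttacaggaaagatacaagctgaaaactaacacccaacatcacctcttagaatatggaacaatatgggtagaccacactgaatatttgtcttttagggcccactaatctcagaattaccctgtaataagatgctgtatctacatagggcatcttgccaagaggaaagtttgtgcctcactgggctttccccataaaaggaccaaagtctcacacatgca
Fcer2a: agagggtgaaTTCCCAAGAAgggccaggag
The outer TTC and GAA of each match are set by the search. Between them, Retnla has ACAA and Fcer2a has CCAA. A TATA-like stretch (TATAA on either strand) in the last 50 bases before the start was found at 4 of the 9 member starts, in Fcer2a, Mptx1, Pla2g4c and Retnla, and at 6.36% of all starts. The sequences bear on the reference genome and were not measured in these mice.

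In IL-4Rα-/- colitis against WT colitis, Itln1, Ang4, Pla2g4c, Mptx1 and Fcer2a were more than 2-fold lower, 5 of the 8 members, while 0.908% of all genes were. Itln1, Ang4 and Pla2g4c were more than 4-fold lower, against 0.150% of all genes. Clca1, Retnlb and Retnla were lower by 1.99-fold, 1.97-fold and 1.74-fold. The members' median log2 difference was -1.31 and that of all genes 0.00. No member was more than 2-fold higher, against 0.271% of all genes. Since the members were chosen on this array, nothing is read from these shares.

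In IL-4Rα-/- colitis against WT normal, 6 of the 8 were more than 2-fold lower, with 0.336% of all genes, and the exceptions were Retnlb (1.93-fold) and Fcer2a (1.42-fold). Ang4, Itln1, Pla2g4c and Mptx1 were more than 4-fold lower, with 0.160% of all genes. The median difference was -2.68. These 4 were also the members more than 2-fold below both WT arrays, which held for 13 genes in all, or 0.0652%. Each of the 8 was below both WT arrays by some amount. Ranked by the difference from the lower WT array, lowest first, genes at 0.00 began at rank 2462 of 19938. Because low values on the IL-4Rα-/- array were the reason for choosing the members, nothing is read from their counts here.

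**Figure D2:**
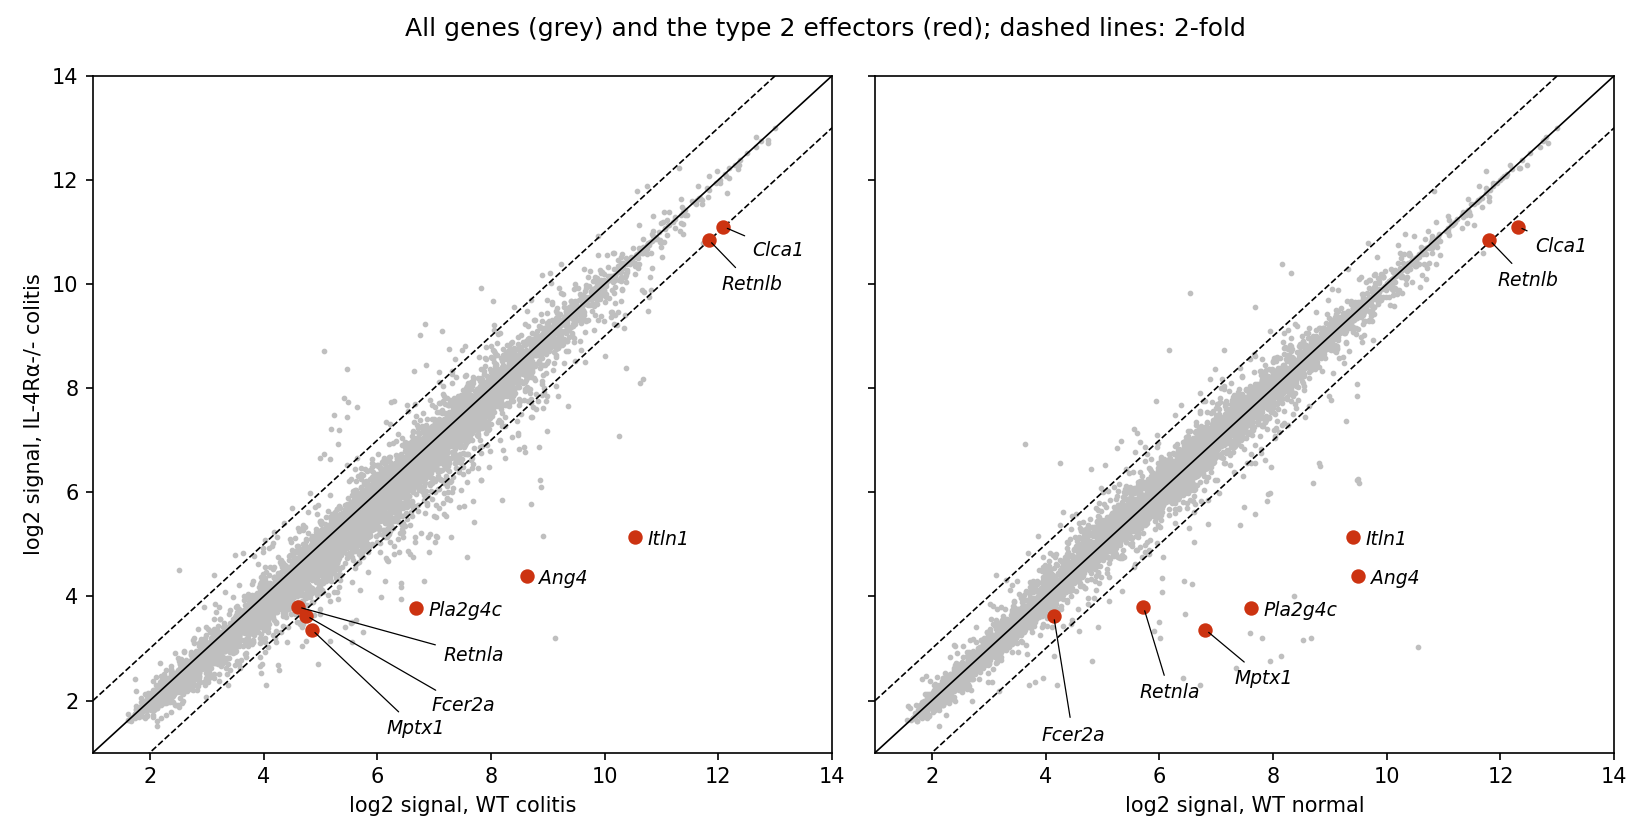
Log2 signal of each gene in IL-4Rα-/- colitis (y axis) against WT colitis (left panel, x axis) and WT normal (right panel, x axis), with all 19938 genes in grey, the 8 members in red, equality as a solid line and 2-fold as dashed lines. Itln1, Ang4 and Pla2g4c lie far below the lower dashed line in both panels, Clca1 and Retnlb lie on or next to it at the bright end, and Mptx1 stands further out against WT normal (-3.45) than against WT colitis (-1.49).

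WT colitis against WT normal asks how these genes stood after DSS with the receptor present. Here the members did not share a direction. Mptx1 (3.89-fold) and Retnla (2.17-fold) were more than 2-fold lower, 2 of the 8 members, against 0.456% of all genes (3 of the 8, with Pla2g4c, after quantile normalization or median centring). Itln1 was more than 2-fold higher (2.17-fold), 1 of the 8, against 1.16% of all genes. Pla2g4c (1.92-fold) and Ang4 (1.83-fold) were lower and Fcer2a higher (1.53-fold) by less than 2-fold. Clca1 (1.16-fold lower) and Retnlb (1.02-fold higher, or -0.04 on the log2 scale with each array centred on its median) were the closest to their untreated level. The median difference was -0.55. With 1 pool per group, how much mice of a group differ in these genes was not measured.

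The relatives of each member were read beside it. For Fcer2a these were chains of the other IgE receptor, which are not of its gene family. Of these 28 listed genes 20 were measured, and 8 of those were below background on all 3 arrays. The measured Clca genes lie on 1 chromosome in the order Clca3a1, Clca3a2, Clca3b, Clca4b, Clca4a, Clca1, Clca2. They encode related secreted or membrane-bound proteins of the mucosa. Clca1 was lower in IL-4Rα-/- colitis, and 5 of its 6 measured relatives read highest there. Among all 19938 genes, 2074 lay above WT colitis and 3265 above WT normal on the IL-4Rα-/- array. Clca4b had a log2 signal of 6.54 on the WT normal array, 9.23 on the WT colitis array and 9.82 on the IL-4Rα-/- array, and Clca3b had 10.47, 9.88 and 10.92. Clca4a (8.58, 8.91 and 9.05), Clca3a2 (6.26, 6.01 and 6.74) and Clca3a1 (5.01, 4.97 and 5.18) differed by less than 2-fold between any 2 arrays, and Clca2 was below background on each. Of the 6, the 5 with a readable signal thus did not share the direction of Clca1, some by small differences. Clca1 was chosen for a low value on this array and its relatives were not, so nothing is read from the contrast.

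Retnlb and Retnla lie next to Retnlg, and the family also holds Retn, the fat hormone resistin. Retn had 5.08 on the WT normal array, 5.11 on the WT colitis array and 4.45 on the IL-4Rα-/- array, lowest on the IL-4Rα-/- array like both members, by under 2-fold from either WT array as Retnlb was. Retnlg was above background on the WT colitis array alone (3.12, 3.76 and 3.12). Among the angiogenins, Ang6 read 3.62 on each array and Ang2 and Ang5 were below background on all 3, so Ang4 was the one measured angiogenin with a clear signal. Among the cytosolic phospholipases, Pla2g4a, the widely expressed arachidonate-releasing enzyme, stayed between 6.70 and 7.04, and Pla2g4f read 3.83 on each array. The high-affinity IgE receptor of mast cells shares its ligand with Fcer2a but not its gene family. Of its chains, Fcer1g read 6.51, 6.74 and 6.51. Fcer1a was above background on the WT colitis array alone (2.90, 4.07 and 3.03), and Ms4a2 was below background on each. The pentraxins Crp and Apcs were below background throughout.

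**Figure D3:**
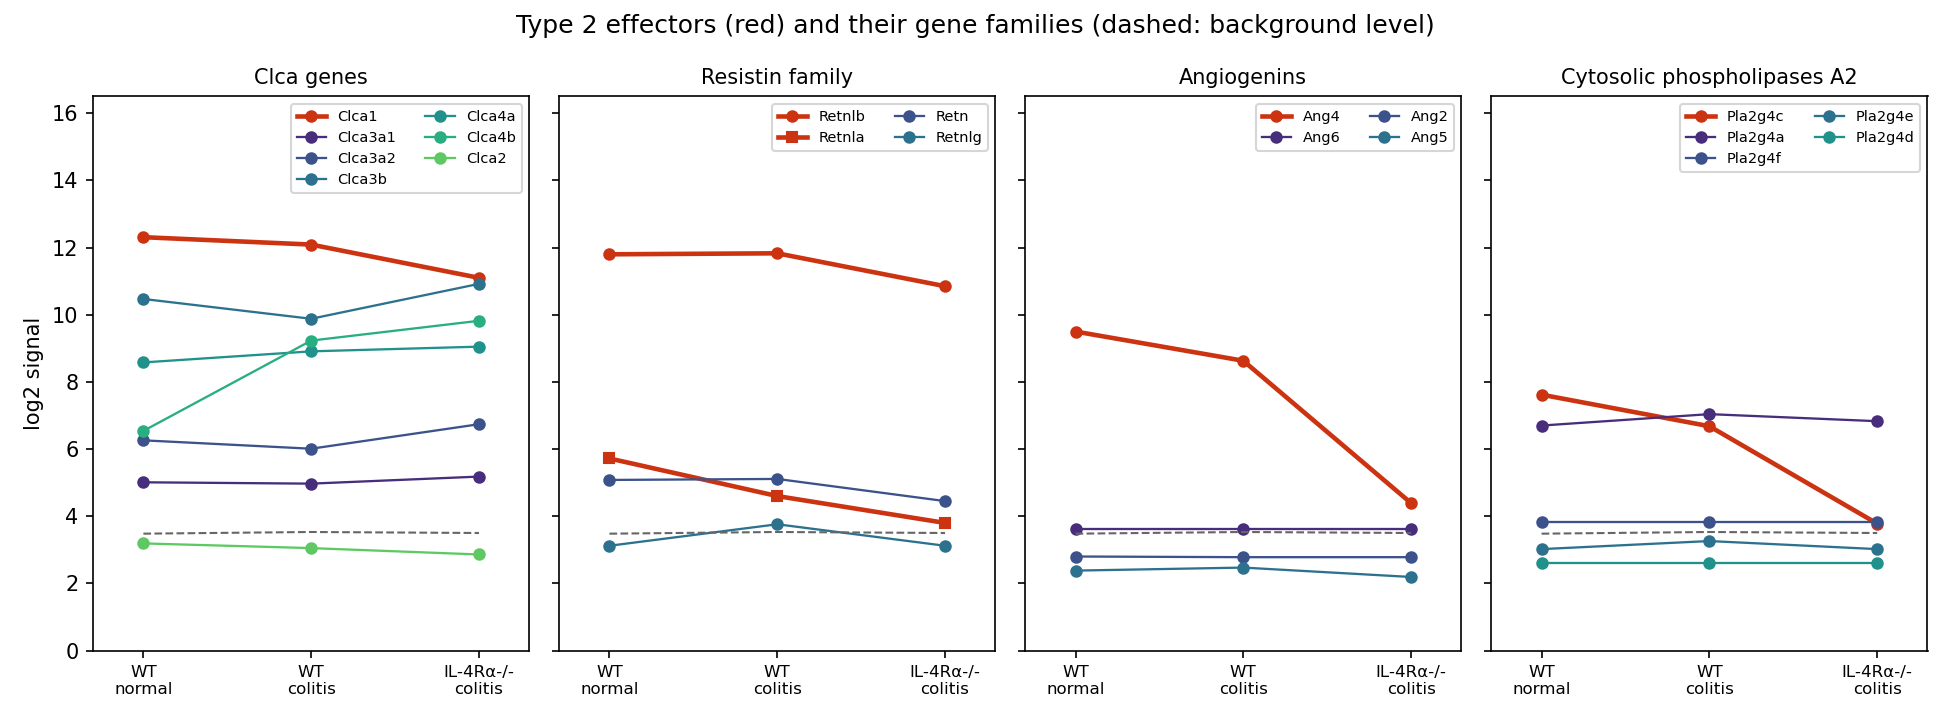
Log2 signal (y axis) of Clca1, Retnlb, Retnla, Ang4 and Pla2g4c (red) and of their measured relatives (other colours) on the 3 arrays (x axis), with 1 panel per family and the background level as a dashed line. Clca1 slopes down to the IL-4Rα-/- array (11.10) while Clca3b (10.92) and Clca4b (9.82) have their highest points there.

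Markers of the cells that make these products were set beside them. Of 14 goblet cell markers outside the members 12 were measured, and in IL-4Rα-/- colitis against WT colitis 0 of them passed 2-fold in either direction (-0.38 to 0.24, median -0.16). Their summed signal was 14.50 on the WT normal array, 14.43 on the WT colitis array and 14.38 on the IL-4Rα-/- array on the log2 scale. Muc2, the main gel-forming mucin, read 12.83, 12.88 and 12.71, the trefoil peptide Tff3 read 11.80, 11.82 and 11.68, and Zg16, a mucus lectin, read 12.12 on each array. Spdef, a transcription factor of goblet cell maturation, read 8.30, 8.04 and 7.96. Against WT normal, Foxa3 was more than 2-fold lower (-1.13), as it already was in WT colitis (-1.31). Itln1 and Ang4 were more than 4-fold below WT colitis in the comparison where the goblet cell markers ranged from -0.38 to 0.24. Retnlb (-0.98) and Clca1 (-0.99) differed by just under 2-fold, further than the lowest of these markers (-0.38). The members were chosen for low values on this array, so nothing is read from their distance to the markers.

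Paneth cells, the other known source of Itln1 and Ang4, are scarce in the mouse colon. Of 12 Paneth markers 4 were measured, and 0 of them passed 2-fold in any comparison. More than 2-fold lower were 0.908% of all genes in IL-4Rα-/- colitis against WT colitis and 0.336% against WT normal. In WT colitis against WT normal the share was 0.456%, so nothing is read from 0 of 4. Lysozyme (Lyz1) read 7.44 on the WT normal array, 7.80 on the WT colitis array and 7.01 on the IL-4Rα-/- array, Pla2g2a read 9.97, 9.74 and 10.25, Mmp7 read 4.28, 4.44 and 4.55, and the defensin Defa24 was below background on each. The 4 had no common direction, and most defensins of the list had no probe set with 1 symbol.

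B cell markers were lower along with Fcer2a in IL-4Rα-/- colitis against WT colitis. Of 14 listed 13 were measured, and against WT colitis 12 of the 13 were lower in IL-4Rα-/- colitis (median -0.67, lowest -0.99), though 0 passed 2-fold. Of all genes, 37.3% were lower by any amount in that comparison. Their summed log2 signal was 8.91 on the WT normal array, 9.52 on the WT colitis array and 8.88 on the IL-4Rα-/- array, with Ms4a1 (CD20) at 4.87, 5.99 and 5.05 and Cd79a at 6.46, 7.10 and 6.41. Fcer2a was lower by 1.12 in that comparison. Against WT normal the B cell median was 0.00 and Fcer2a was lower by 0.51. The part of B cell content in the Fcer2a values was not tested.

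For Retnla, 12 macrophage markers had a summed log2 signal of 10.52 on the WT normal array, 10.97 on the WT colitis array and 10.46 on the IL-4Rα-/- array. The median was 0.18 in WT colitis against WT normal, where Retnla differed by -1.12, and 0.00 in IL-4Rα-/- colitis against WT normal, where Retnla differed by -1.92. In IL-4Rα-/- colitis against WT colitis, 8 of the 12 were lower and 0 higher (median -0.18), where 37.3% of all genes were lower by any amount. Cd163 differed by -1.10 but was below background on the IL-4Rα-/- array (3.12), so its decrease was at least 1.65-fold. Retnla differed by -0.80 in that comparison. Adgre1 (F4/80) read 4.75, 4.75 and 4.73, Csf1r read 6.28, 6.41 and 6.28, and Itgam read 4.43, 5.25 and 4.43. The part of macrophage content in the Retnla values was not tested. Of 8 adipocyte markers 7 were measured, with a median of -0.59 in IL-4Rα-/- colitis against WT normal and 0.00 in WT colitis against WT normal. Adiponectin (Adipoq) read 3.90, 3.32 and 3.26, Cidec 5.95, 5.10 and 5.02 and Plin1 4.03, 3.44 and 3.44, each highest in WT normal as Retnla was. Pparg, Fabp4 and Retn were instead highest in WT colitis, and of the 7 markers 3 lay below and 3 above WT normal on the WT colitis array. The part of fat tissue in the Retnla values was not tested. Of 7 measured eosinophil markers, 6 were below background on all 3 arrays.

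**Figure D4:**
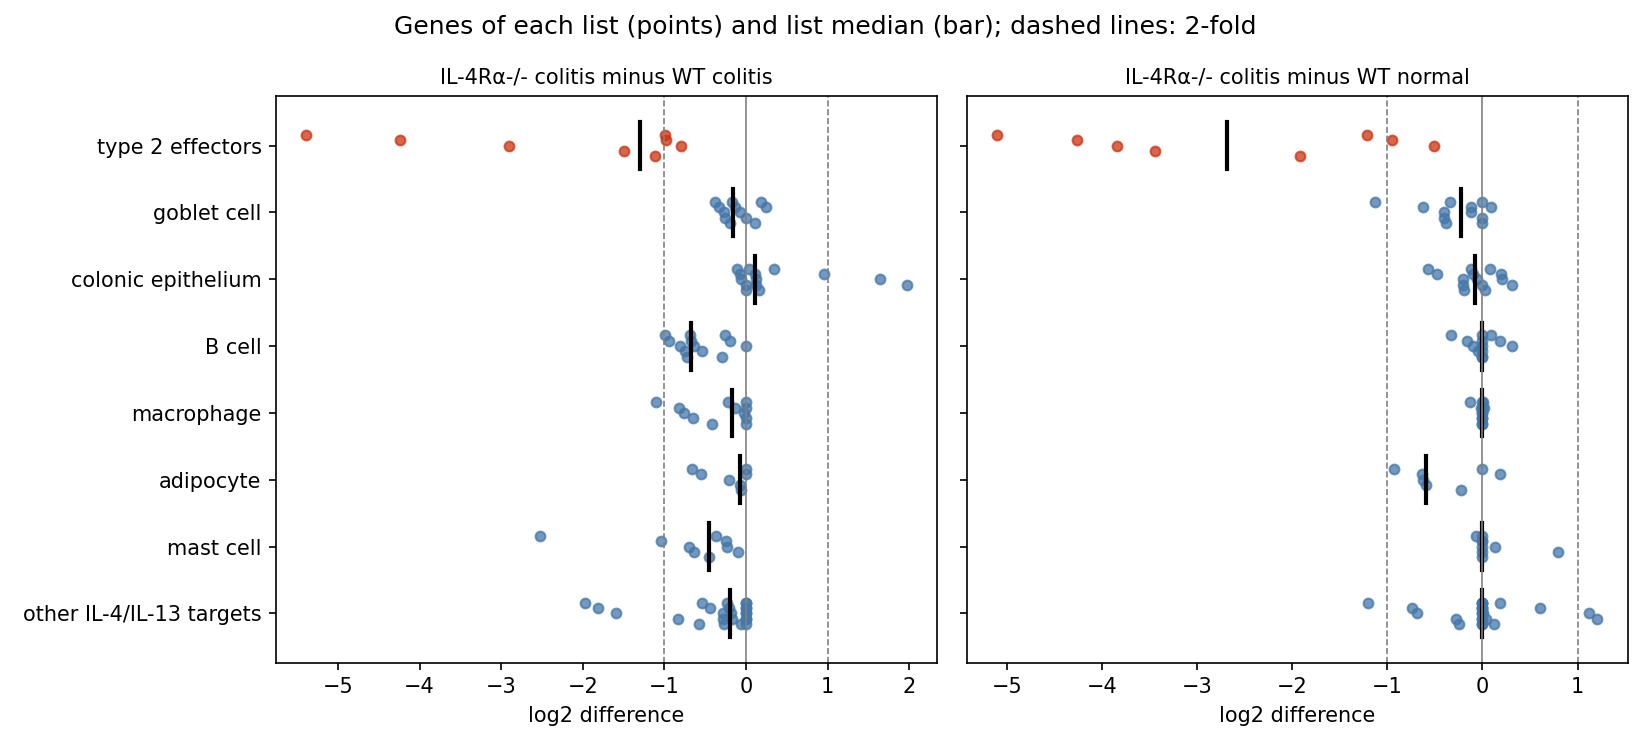
Log2 difference (x axis) of IL-4Rα-/- colitis from WT colitis (left) and from WT normal (right) for each member and each gene of 7 other lists (y axis), with medians as bars and 2-fold as dashed lines. The members (red) were chosen for low values and spread from -5.39 to -0.80 on the left, while the goblet cell markers lie between -0.38 and 0.24.

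The other known targets of IL-4 and IL-13 were read as a list, 24 of 29 measured, of which 10 were below background on all 3 arrays and 8 had identical values on them. In IL-4Rα-/- colitis against WT colitis, 3 of the 24 were more than 2-fold lower and 0 higher (median -0.20), where 0.908% and 0.271% of all genes were. They were the mucosal mast cell proteases Mcpt2 (-1.97) and Mcpt1 (-1.82) and the eosinophil attractant Ccl11 (-1.59). Against WT normal, 1 was lower (Egr2, -1.20) and 2 were higher (Mcpt1, 1.21, and Mcpt2, 1.12), and the median was 0.00. Mcpt1 had a log2 signal of 5.57 on the WT normal array, 8.60 on the WT colitis array and 6.78 on the IL-4Rα-/- array. The proteases were thus raised in WT colitis and part-way down in IL-4Rα-/- colitis, still above the untreated level, where Ang4 and Itln1 lay far below it. The mast cell markers were also highest in WT colitis, with a summed log2 signal of 7.76, 8.55 and 7.82, of which Kit was the brightest. Cpa3 was lower by 2.53 in IL-4Rα-/- colitis against WT colitis. Against WT normal, where the proteases stayed higher, the mast cell median was 0.00, with 6 of the 9 markers at 0.00, 2 higher and 1 lower. Identical values on these 2 arrays were found for 65.8% of all genes, near the share of the markers. Of the 6 at 0.00, Mcpt4, Tpsb2, Hdc and Ms4a2 were below background on both arrays. The part of mast cell content in the protease values was not tested. Of the classical macrophage targets, Arg1 read 2.94 on each array and Chil3 was below background on all 3, while Mrc1 was above background on each, with a difference of -0.84 from WT colitis and 0.00 from WT normal.

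Upstream of the members, Il13ra1 encodes the chain that pairs with IL-4Rα in a receptor for IL-4 and IL-13. It read 8.46 on the WT normal array, 8.79 on the WT colitis array and 8.80 on the IL-4Rα-/- array. Stat6 read 7.20, 7.38 and 7.20 in the same order. Of 9 measured receptor and signalling genes, Il4ra alone lay more than 2-fold under its WT colitis level. Il4 (2.38) and Il13 (3.50) had the same dim value on each array, and 5 of the 7 cytokine genes were below background on all 3, so ligand levels could not be read at this sensitivity. Over all 151 measured genes of the 14 lists, 8 lay more than 2-fold under WT colitis on the IL-4Rα-/- array and 3 above, where 0.908% and 0.271% of all genes did.

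By the smaller of the 2 decreases of the IL-4Rα-/- array (from WT normal and from WT colitis), a measure over these 3 arrays, the 10 genes most like the members were Pnliprp2 (-5.45), Clps (-2.63), Grp (-1.56), Igkv4-91 (-1.48), Ch25h (-1.21), Dusp1 (-1.15), Irf7 (-1.12), Nr4a1 (-1.01), Rsad2 (-1.01) and Ptgs2 (2-fold). On the same measure Itln1 ranked 2, Ang4 3, Pla2g4c 4, Mptx1 7, Clca1 15, Retnlb 18, Retnla 27 and Fcer2a 80. Pnliprp2, a lipase, and Clps, the cofactor colipase, digest fat. Pnliprp2 read 8.66 on the WT normal array, 9.12 on the WT colitis array and 3.21 on the IL-4Rα-/- array, at least 49.2-fold below WT colitis. Clps read 9.48, 8.86 and 6.23. Both are known from the exocrine pancreas, so the other 12 measured genes of a 17-gene list of digestive enzymes of that gland were read. Their summed log2 signal was 11.65 on the WT normal array, 7.06 on the WT colitis array and 7.21 on the IL-4Rα-/- array, and 0 of the 12 differed by more than 2-fold between the colitis arrays, while 12 of 12 were more than 2-fold below WT normal on both. Dusp1, Nr4a1 and Ptgs2 are rapidly induced genes and Irf7 and Rsad2 are interferon-induced genes. Their decreases from the nearer WT array were about 2-fold, as those of Clca1 and Retnlb were.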

How the data were processed

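Distal colon RNA was measured on GeneChip Mouse Gene 1.0 ST arrays, 1 per group, per the study's methods. The sample labels describe an Agilent Cy3 labelling kit, which belongs to another array type, and this was not resolved. For 28944 probe sets the authors deposited log2 values, to 2 decimals and on a common scale, but how probes were summarised and arrays normalized is not given in the sources used. Symbols came from the platform annotation, in which 21789 probe sets had 1 symbol, 1621 several and 5534 none, and 21698 were matched to RefSeq by gene number. The probe set with the highest mean over the 3 arrays stood for a gene, which left 19938 genes. Of these, 65.8% had the same value in WT normal and IL-4Rα-/- colitis, and 52.3% in either of the other pairs, which pulls medians and shares towards no difference.

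Log2 differences were computed for 3 pairs of arrays and counted past 2-fold and 4-fold, with no test. Where the lower array was below background, the fold was taken against the background level and is written as at least that size. Each gene was compared with itself across arrays, since probe sets differ in brightness. The members and the gene lists were chosen with earlier results of these data known, and the list of pancreatic enzymes was added after Pnliprp2 and Clps had been seen. Genes were named by rule: the members, Il4ra and the 10 genes outside the members with the largest value of the smaller decrease. Relatives and IgE receptor chains above background and list genes past 2-fold (at most 4 per list) were named too. So were a few defining markers of each cell type. Other list genes were named after their values were seen.

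Alternatives were quantile normalization, centring on array medians, an offset of 32 on the linear scale, averaging a gene's probe sets, a filter on dim genes and leaving out genes with 3 equal values. The counting steps were tested on simulated data with 200 changed genes. Python 3.11.15, numpy 2.4.6, pandas 2.3.3 and matplotlib 3.10.9 were used. The number of arrays limits the precision.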

Additional observations from a re-analysis of the deposited data

How the results depend on the processing

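No paired analysis was possible because each group had 1 array. In both comparisons with the IL-4Rα-/- array, all 8 members stayed lower under each alternative run. In WT colitis against WT normal, Retnlb differed by 0.03 as deposited and by -0.04 with median centring, and the other 7 kept their direction. Adding an offset of 32 on the linear scale, which shrinks differences of dim genes by construction, moved the members' median log2 difference to -0.97 from -1.31 in IL-4Rα-/- colitis against WT colitis and to -1.48 from -2.68 against WT normal. It left 3 members more than 2-fold under WT colitis, in place of 5, because Mptx1 (-0.53) and Fcer2a (-0.41) no longer passed, and 1 in place of 2 in WT colitis against WT normal, where quantile normalization and median centring gave 3, with Pla2g4c at -1.03 and -1.01. Against WT colitis it also moved Itln1 to -4.49, Ang4 to -3.02, Pla2g4c to -1.56 and Retnla to -0.29. Of the 151 list genes, 5 in place of 8 were then more than 2-fold under WT colitis. In WT colitis against WT normal, 0 members were more than 4-fold lower as deposited, 1 with quantile normalization and 1 with median centring, which was Mptx1 in both. Averaging a gene's probe sets could not change a member, each having 1. Mptx1, Fcer2a, Retnla and Pla2g4c lay within 0.30 of background or under it in IL-4Rα-/- colitis, and their levels there are poorly resolved.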
